A study of Homo sapiens with 18 samples.

Results

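The proteasome genes described here were 36 genes that encode the subunits, activators and assembly factor POMP of the proteasome, read in RNA-seq libraries of LoVo and DLD-1, 2 human colorectal cancer cell lines. They were taken by gene symbol. They held 7 genes of the 20S alpha ring (PSMA1 to PSMA7), 7 of the 20S beta ring (PSMB1 to PSMB7), 6 ATPases of the 19S regulator (PSMC1 to PSMC6), 11 other 19S subunits (PSMD1 to PSMD4, PSMD6 to PSMD8 and PSMD11 to PSMD14), 4 activators (PSME1 to PSME4) and POMP. Each symbol matched 1 of the 61806 Ensembl gene identifiers in the deposited table, and all 36 were among the 18537 genes that reached 1 TPM in at least 3 of the 18 libraries and were tested.

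The proteasome degrades proteins that carry ubiquitin chains. The 20S core is a barrel of stacked alpha and beta rings whose active sites face the inside. The 19S regulator binds the chain, removes it, and unfolds the substrate through its ring of ATPases. NFE2L1, a membrane-bound transcription factor, raises the transcription of the subunit genes together when proteasome activity is low, through antioxidant response elements in their promoters. Cancer cells, which make much protein, depend on the complex, and its chymotrypsin-like site is the target of the drug bortezomib.

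Each line was profiled in 3 groups of 3 libraries: with LIN28B overexpressed and 5 µM alpelisib, with LIN28B overexpressed and no drug, and with EV and no drug. LIN28B binds the precursors of let-7 microRNAs and stops them from maturing, and alpelisib inhibits the alpha isoform of PI3K, the kinase that passes growth factor signals to AKT. No EV cells received alpelisib, so the drug was read only in cells that overexpressed LIN28B. All cells grew in DMEM with fetal bovine serum. How LIN28B was delivered, whether the cells were clones or pools, how long the drug was given and what vehicle the other cells received are details that the sources used here do not state. No label says that the 3 libraries of a group came from separate cultures, so p-values measure the spread between these libraries, which may be technical.

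The labels were first checked on LIN28B itself, which lies on GRCh38 chromosome 6, 104936616 to 105083332, plus strand (ENSG00000187772). Under the LoVo label it measured 146, 160.3 and 155 TPM with LIN28B and alpelisib, 706, 682 and 674 TPM with LIN28B and 4.91, 3.66 and 3.87 TPM with EV. DLD-1 had 149.7, 139 and 141 TPM with LIN28B and alpelisib, 493, 483 and 408 TPM with LIN28B and 2.74, 1.17 and 1.38 TPM with EV. The genotype labels thus held, and LIN28B itself was lower in the alpelisib libraries. The cell line label of the LoVo LIN28B libraries was less clear, since they resembled DLD-1 more than LoVo EV, and the cause was not tested. Pearson's r of log2(TPM + 1), across genes that are not independent replicates, was 0.964 to 0.968 when LoVo-labelled LIN28B was set beside DLD-1 LIN28B, and 0.890 to 0.918 when it was set beside LoVo EV. Within DLD-1, LIN28B beside EV gave 0.976 to 0.980. Single markers went both ways. KRT20 was at 4.32 to 8.36 TPM in LoVo-labelled LIN28B with or without alpelisib, 111 to 155 TPM in DLD-1 and 0.328 to 1.05 TPM in LoVo EV. CDH17 was at 122 to 216, 141 to 211 and 12.5 to 16.7 TPM in the same order. LoVo EV also stood apart in its mitochondrial transcripts, which took 24.0%, 23.0% and 14.5% of TPM in its 3 libraries and 7.23% to 15.8% in the other 15. The libraries are therefore called LoVo-labelled LIN28B. Comparisons that use LoVo EV are given also without the 2 LoVo EV libraries of highest mitochondrial share. That alternative was chosen after seeing the data and leaves 1 LoVo EV library, which is assumed to vary like the other groups. Of 12 epithelial markers 9 to 12 reached 1 TPM in each library (KRT8 between 2383 and 5647 TPM, EPCAM between 456 and 729 TPM), although CDX1 reached at most 1.05 TPM. Their sum was 13407 to 15442 TPM with alpelisib against 10521 to 11135 TPM without it in LoVo-labelled LIN28B, and 10299 to 10982 TPM with alpelisib against 9284 to 10046 TPM without it in DLD-1 LIN28B. The markers did not move together, since limma called KRT8 and KRT18 higher with alpelisib in both sets and KRT19 and VIL1 lower in both. EV cells summed to 7045 to 8012 TPM in LoVo and 12509 to 12765 TPM in DLD-1. Of 6 fibroblast markers 1 or 2 reached 1 TPM in each library, and their sum was 6.73 to 8.44 TPM in LoVo-labelled LIN28B with alpelisib, 5.16 to 7.21 TPM in LoVo-labelled LIN28B and 9.52 to 15.0 TPM in LoVo EV, with COL1A1 at 9.19 to 14.3 TPM in LoVo EV. In DLD-1 that sum was 3.39 to 4.81 TPM with LIN28B and alpelisib, 3.24 to 6.27 TPM with LIN28B and 4.34 to 5.66 TPM with EV. Of 6 leukocyte markers 0 to 2 reached 1 TPM, and their sum was 0.573 to 5.94 TPM over all libraries, with LYZ at up to 4.15 TPM. The defining markers COL1A2, COL3A1, DCN, PTPRC and CD3E were at most 0.13 TPM in any library. The part of these marker sums in the results was not tested.

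Proteasome transcripts were abundant. Summed over the 36 genes they reached 5740.3, 5469 and 5188 TPM in the LoVo-labelled LIN28B libraries with alpelisib, 7815, 7689 and 7750.4 TPM in LoVo-labelled LIN28B and 4256, 4452 and 5285 TPM in LoVo EV. In DLD-1 the sums were 5672, 5544 and 6018 TPM with LIN28B and alpelisib, 7362, 7317 and 6871 TPM with LIN28B and 7262, 6853 and 6771 TPM with EV. The alpelisib libraries lay below the untreated LIN28B libraries in both sets. LoVo EV had the lowest mean sum (4664 TPM), but it overlapped LoVo-labelled LIN28B with alpelisib (mean 5466 TPM). The order of these 2 groups depended on scaling. The median log2 change of the 36, LIN28B with alpelisib minus EV, was 0.194 on TPM and -0.052 with median-of-ratios scaling. TPM is scaled to gene length, so levels can be set side by side, and the subunits differed widely although each core particle holds them in equal copy number. Among the 14 core subunits of untreated DLD-1 LIN28B cells the mean ran between 56.0 TPM for PSMA5 and 638 TPM for PSMA4, an 11.4-fold span. The span was 14.1-fold in LoVo-labelled LIN28B, between 47.4 TPM for PSMA5 and 667 TPM for PSMA4. PSME4, which encodes the large nuclear activator PA200, had the lowest mean of all 36 genes in each of the 6 groups, between 12.3 TPM in LoVo EV and 39.2 TPM in DLD-1 LIN28B. PSMA4 or PSMB4 had the highest. Gene lengths were the submitters', and 11 of the 36 genes have named pseudogenes in the annotation, PSMC1 the most with 13, so reads could be divided between a gene and its copies.

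**Figure D1:**
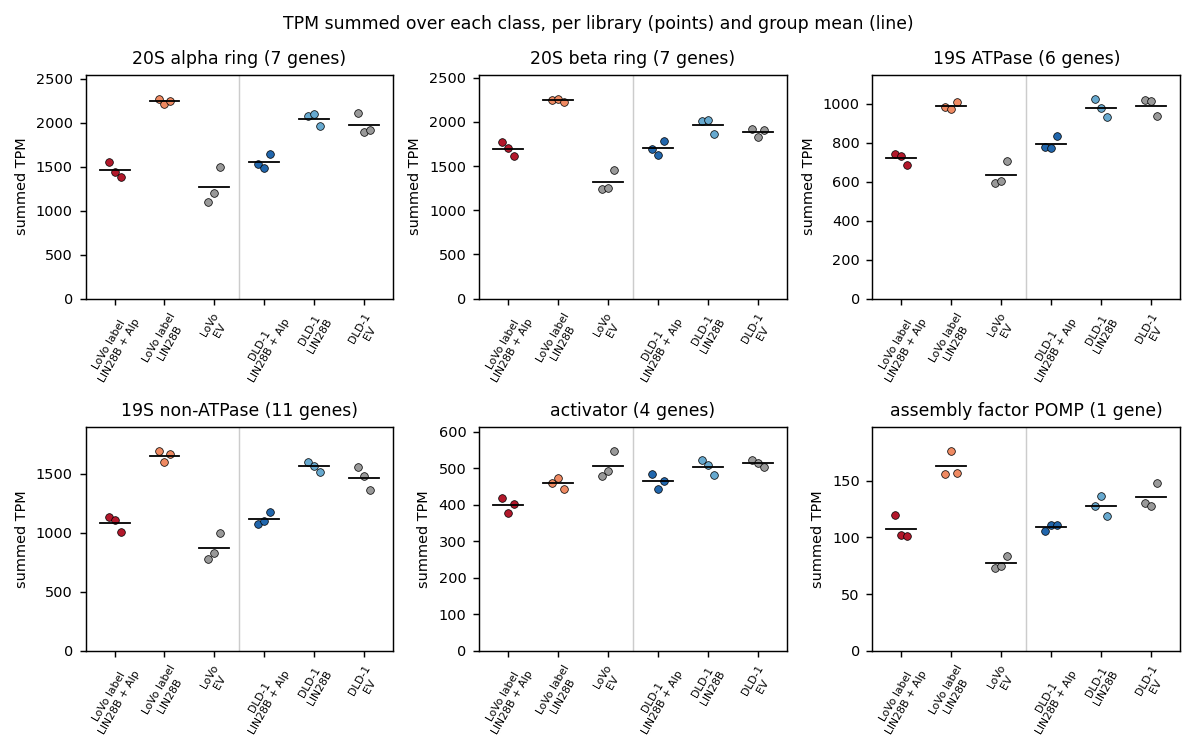
Summed TPM of each structural class of proteasome genes in each library (points), with the group mean (line), for the 6 groups with alpelisib at the left of each set of 3. The 11 non-ATPase 19S genes summed to 1134, 1109.8 and 1004 TPM in LoVo-labelled LIN28B with alpelisib, against 1693, 1595 and 1667 TPM in LoVo-labelled LIN28B, and the 4 activators to 419.8, 379 and 402 TPM against 459, 474 and 443 TPM in the same groups.

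The first comparison set treated beside untreated cells that overexpress LIN28B. LIN28B itself was lower in the treated cells, by log2 -2.15 under the LoVo label and -1.68 in DLD-1. A change with the drug and a change with less LIN28B cannot be told apart here. Proteasome transcripts were lower in the treated cells of both sets. Under the LoVo label 29 of 36 genes were called lower and 0 higher by limma at an adjusted p under 0.05, where 24.6% of all genes tested were called lower and 15.1% higher. In DLD-1, 27 of 36 were called lower and 0 higher, where 21.9% of all genes were called lower and 9.05% higher. The median log2 change of the 36 was -0.59 under the LoVo label and -0.37 in DLD-1, beside -0.06 and -0.09 over all genes. With a filter at 5 TPM in place of 1 TPM, 12525 genes were tested and the proteasome counts stayed the same. Of those genes, 35.0% were called lower and 16.2% higher under the LoVo label, and 32.4% and 11.3% in DLD-1. Their median log2 changes were -0.16 and -0.18. In such bulk libraries fewer cells that express a gene and less of its RNA per cell cannot be told apart. All 27 genes called in DLD-1 were also called under the LoVo label, which is 100% of the DLD-1 list and 93.1% of the LoVo-label list. Since 29 of 36 were called under the LoVo label, most of any 27 of the 36 would be shared. The same overlap over all genes is not given here. PSMC1 and POMP were called under the LoVo label alone. PSMA5, PSMB4, PSMC5, PSMD4, PSMD8, PSME1 and PSME2 were called in neither set. The 2 comparisons share no library, but they may not be of separate lines, for the reason given above.

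Scaling mattered more in DLD-1. With median-of-ratios scaling, which shifted the median of all genes by 0.097 log2 under the LoVo label and 0.11 in DLD-1, the counts were 29 lower and 2 higher (PSMD4 and PSME1) under the LoVo label and 15 lower and 2 higher (PSMB4 and PSME1) in DLD-1. The 15 were PSMA2, PSMA4, PSMA6, PSMB5, PSMC2, PSMC6, PSMD1, PSMD2, PSMD3, PSMD7, PSMD11, PSMD12, PSMD13, PSMD14 and PSME4, so the 19S non-ATPase genes kept their calls with the exception of PSMD6. Without DLD-1 LIN28B replicate 1 the DLD-1 count was 16 lower, where 15.4% of all genes were. Mitochondrial transcripts took 9.88% ± 2.06 of TPM with alpelisib against 8.67% ± 1.56 without it in LoVo-labelled LIN28B, and 13.7% ± 2.74 against 10.6% ± 0.414 in DLD-1 LIN28B (SD, n = 3). With those transcripts removed from the TPM, 30 genes were called lower and 0 higher under the LoVo label, and 26 lower and 1 higher (PSMB4) in DLD-1. Of all genes, 23.9% were then called lower and 15.2% higher under the LoVo label, and 19.9% and 10.2% in DLD-1.

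**Figure D2:**
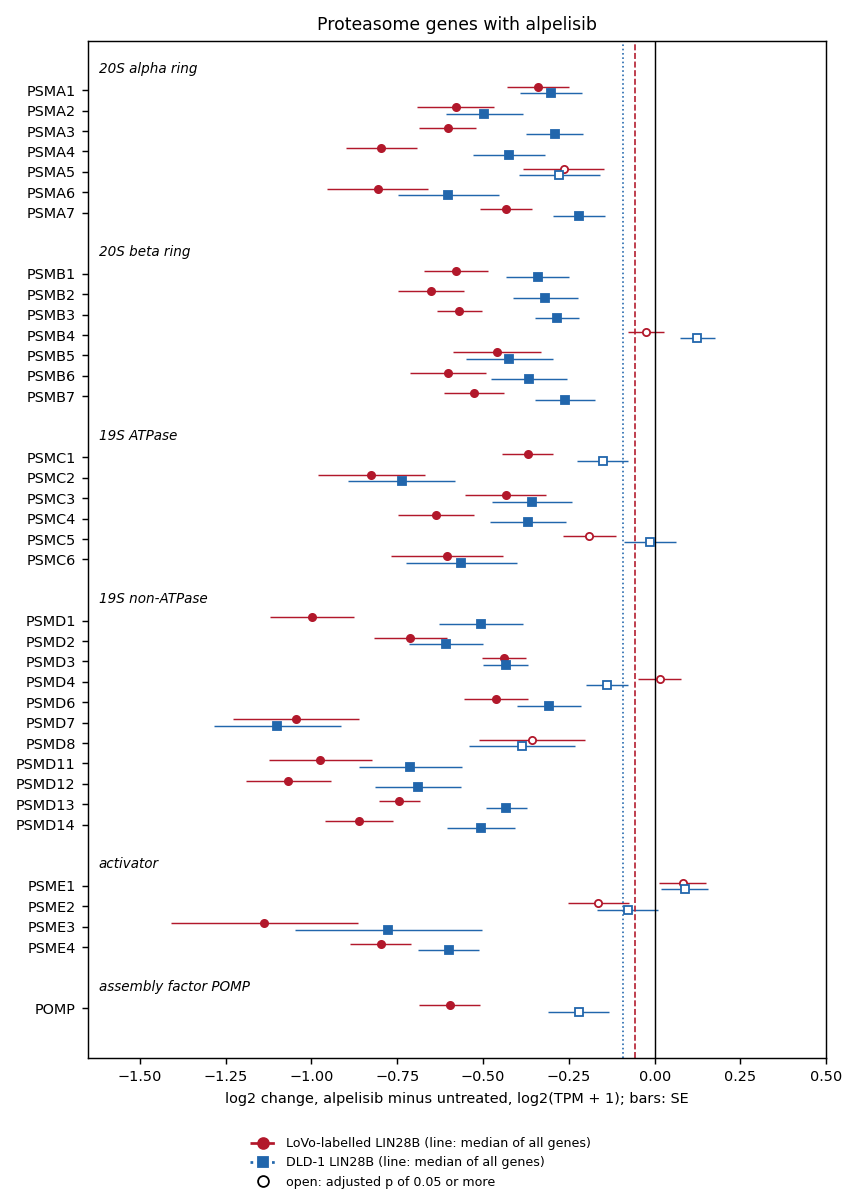
Log2 change of each proteasome gene with alpelisib on the log2(TPM + 1) scale (x axis; point and SE), by structural class, in LoVo-labelled LIN28B and in DLD-1 LIN28B; filled points were called by limma and vertical lines mark the median of all genes. PSME3, PSMD12 and PSMD7 lie farthest to the left under the LoVo label and PSMD7, PSME3 and PSMC2 in DLD-1, and PSMB4, PSMD4 and PSME1 lie near 0.

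Among the 19S non-ATPase genes, which form the lid and part of the base of the regulator, 9 of 11 were called lower in each set. PSMD7 (ENSG00000103035; chromosome 16, 74296775 to 74306288, plus strand) encodes the inactive partner of the deubiquitinase PSMD14. It measured 89.6, 81.6 and 60.9 TPM in LoVo-labelled LIN28B with alpelisib against 158, 142 and 178 TPM in LoVo-labelled LIN28B, and 63.6, 65.7 and 77.5 TPM in DLD-1 LIN28B with alpelisib against 160.5, 143 and 142 TPM in DLD-1 LIN28B. Every treated library lay below every untreated one, and the ratio of means was 0.486 under the LoVo label and 0.464 in DLD-1 (log2 -1.05 ± 0.18 and -1.10 ± 0.18 SE; limma, adjusted p = 0.000357 and 0.00047). PSMD12 (ENSG00000197170; chromosome 17, 67337916 to 67366627, minus strand), a lid scaffold, had 61.2, 56 and 50.6 TPM with alpelisib against 119, 112 and 123 TPM without under the LoVo label, and 55.2, 60.9 and 73.9 TPM in treated against 105, 97.4 and 104 TPM in untreated DLD-1 LIN28B, again without overlap. Its adjusted p by limma was 9.14e-06 and 0.000783 (log2 -1.07 and -0.69).

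PSMD1 (ENSG00000173692; chromosome 2, 231056864 to 231172827, plus strand), the largest scaffold of the base, had 42.5, 42.9 and 38.6 TPM with alpelisib and 95.8, 79.4 and 76.3 TPM without it in LoVo-labelled LIN28B. In DLD-1 LIN28B it had 56.9, 47.4 and 49.8 TPM with alpelisib and 77.8, 75.5 and 66.8 TPM without it. Its groups did not overlap, and the ratio of means was 0.493 under the LoVo label and 0.7 in DLD-1 (limma, adjusted p = 1.42e-05 and 0.00556). PSMD11, which clamps the lid to the core, measured 58.4, 50.9 and 41.8 TPM in treated against 111, 81.6 and 107 TPM in untreated LoVo-labelled LIN28B and 53.2, 64.3 and 67.3 TPM in treated against 97, 105 and 101 TPM in untreated DLD-1 LIN28B. PSMD14, the deubiquitinase that cuts chains off the substrate, had 79.5, 62.2 and 74.6 TPM in treated against 131, 137 and 126 TPM in untreated LoVo-labelled LIN28B and 77.4, 82.6 and 82.4 TPM in treated against 122, 109 and 115 TPM in untreated DLD-1 LIN28B. Both genes had non-overlapping groups in both sets.

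The smallest p in this class belonged to PSMD13, a lid subunit with little spread between libraries. It had 149.7 ± 0.871 TPM with alpelisib against 251 ± 9.47 TPM without in LoVo-labelled LIN28B, and 168 ± 3.29 TPM in treated against 227 ± 11.6 TPM in untreated DLD-1 LIN28B (SD, n = 3; limma, adjusted p = 2.5e-07 and 0.000112). PSMD2, the docking platform of ubiquitin shuttle proteins, had a ratio of treated to untreated mean TPM of 0.609 under the LoVo label and 0.655 in DLD-1 (limma, adjusted p = 8.74e-05 and 0.000647). PSMD3, a lid subunit, fell to 129 TPM in treated LoVo-labelled LIN28B, against 175 TPM untreated, and to 129.6 TPM in treated DLD-1 LIN28B, against 175 TPM untreated. PSMD6, another lid subunit, had 121 ± 4.96 TPM in treated against 167 ± 7.25 TPM in untreated LoVo-labelled LIN28B and 121 ± 8.79 TPM in treated against 149.5 ± 8.42 TPM in untreated DLD-1 LIN28B (SD, n = 3), and was called in both. PSMD8, also of the lid, was not called, although its treated libraries lay below the untreated ones in both sets (log2 -0.36 and -0.39; limma, adjusted p = 0.0765 and 0.068). PSMD4, the ubiquitin receptor, was at 195, 192 and 184 TPM in treated against 182, 187 and 196 TPM in untreated LoVo-labelled LIN28B, where the groups overlapped, and at 179, 181 and 180.1 TPM in treated against 203, 191 and 201 TPM in untreated DLD-1 LIN28B, where they did not.

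Among the 19S ATPases, the ring that unfolds substrates and opens the core, 5 of 6 were called lower under the LoVo label and 4 of 6 in DLD-1. PSMC2 (ENSG00000161057; chromosome 7, 103344254 to 103369395, plus strand) had 67.3, 72.2 and 51.3 TPM in treated against 124, 102 and 112 TPM in untreated LoVo-labelled LIN28B, and 53.7, 62.9 and 73.7 TPM in treated against 118, 101 and 98.3 TPM in untreated DLD-1 LIN28B. Its groups did not overlap and its ratio of means, 0.564 and 0.599, was the lowest of the class (limma, adjusted p = 0.000611 and 0.00236). PSMC4 measured 72.2, 67.2 and 58 TPM in treated against 97.1, 97.6 and 113 TPM in untreated LoVo-labelled LIN28B and 69.8, 66 and 77.3 TPM in treated against 102, 89.7 and 84.2 TPM in untreated DLD-1 LIN28B. PSMC6 measured 118, 95 and 73.3 TPM in treated against 139, 129 and 163 TPM in untreated LoVo-labelled LIN28B and 97.9, 104 and 119 TPM in treated against 173, 152 and 149 TPM in untreated DLD-1 LIN28B. All treated values of these ATPases lay below the untreated ones, and LoVo-labelled replicate 3 had the lowest treated value of all 3 genes. PSMC3 changed by -0.43 and -0.36 log2 (limma, adjusted p = 0.00766 and 0.0291). PSMC1, the ATPase with most pseudogenes, was called under the LoVo label (log2 -0.37; limma, adjusted p = 0.001) and not in DLD-1 (log2 -0.15; adjusted p = 0.137). PSMC5 was at 131 ± 2.21 TPM in treated against 149.8 ± 3.72 TPM in untreated LoVo-labelled LIN28B and at 148 ± 7.55 TPM in treated against 149.8 ± 10.7 TPM in untreated DLD-1 LIN28B (SD, n = 3), with no call in either.

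The 20S alpha ring, which gates the core and docks the regulators, had 6 of 7 genes called lower in each set. PSMA6 (ENSG00000100902; chromosome 14, 35278633 to 35317493, plus strand) had 311, 272 and 238 TPM in treated against 479, 438 and 517 TPM in untreated LoVo-labelled LIN28B, and 240.4, 262 and 299 TPM in treated against 415, 412 and 386 TPM in untreated DLD-1 LIN28B. PSMA4, the most abundant alpha subunit, had 421, 384 and 349 TPM in treated against 696, 653 and 652 TPM in untreated LoVo-labelled LIN28B and 478, 449 and 500.2 TPM in treated against 635, 655 and 624 TPM in untreated DLD-1 LIN28B. In both genes the treated and untreated libraries did not overlap, and the drop in mean was over 100 TPM in each set. The log2 change was -0.81 and -0.60 for PSMA6 (limma, adjusted p = 0.000448 and 0.00596) and -0.80 and -0.42 for PSMA4 (adjusted p = 2.67e-05 and 0.00629). PSMA2 fell to 95.3 ± 9.67 TPM in treated LoVo-labelled LIN28B, against 143 ± 8.4 TPM untreated, and to 94.3 ± 7.07 TPM in treated DLD-1 LIN28B, against 134 ± 10.9 TPM untreated (SD, n = 3). PSMA3, PSMA7 and PSMA1 had log2 changes of -0.60, -0.43 and -0.34 under the LoVo label and -0.29, -0.22 and -0.30 in DLD-1. PSMA5, the least abundant alpha subunit, was at 42.3, 34.6 and 41.2 TPM with alpelisib against 43.5, 47.5 and 51.1 TPM without under the LoVo label, and at 41.9, 42.4 and 54.6 TPM in treated against 57.4, 58.7 and 51.9 TPM in untreated DLD-1 LIN28B, where replicate 3 of the treated cells overlapped the untreated ones. It was not called (limma, adjusted p = 0.0864 and 0.0863).

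The 20S beta ring carries the active sites, and 6 of its 7 genes were called lower in each set. PSMB5 (ENSG00000100804; chromosome 14, 23016543 to 23035230, minus strand), the chymotrypsin-like site, measured 191, 181 and 149.8 TPM in treated against 236, 239 and 239.7 TPM in untreated LoVo-labelled LIN28B, and 113, 107 and 129.8 TPM in treated against 171, 158 and 141 TPM in untreated DLD-1 LIN28B. PSMB6, the caspase-like site, measured 134, 121 and 100.2 TPM in treated against 187, 174 and 177 TPM in untreated LoVo-labelled LIN28B and 139, 126 and 153 TPM in treated against 186, 184 and 168 TPM in untreated DLD-1 LIN28B. PSMB7, the trypsin-like site, measured 246, 249.6 and 225 TPM in treated against 362, 345 and 332 TPM in untreated LoVo-labelled LIN28B and 252, 234 and 266 TPM in treated against 291, 307 and 303 TPM in untreated DLD-1 LIN28B. The treated libraries of all catalytic subunits lay below the untreated ones, with ratios of means between 0.662 for PSMB6 under the LoVo label and 0.835 for PSMB7 in DLD-1. By limma the adjusted p of PSMB5 was 0.00907 under the LoVo label and 0.0192 in DLD-1. Of the non-catalytic beta subunits, PSMB3 had the smallest p in both sets, at 239 ± 10.3 TPM in treated against 356 ± 11.7 TPM in untreated LoVo-labelled LIN28B and 292 ± 9.36 TPM in treated against 356 ± 23.5 TPM in untreated DLD-1 LIN28B (SD, n = 3; limma, adjusted p = 6.76e-06 and 0.00373). PSMB2 changed by -0.65 log2 under the LoVo label and -0.32 in DLD-1, and PSMB1 by -0.58 and -0.34.

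PSMB4 (ENSG00000159377; chromosome 1, 151399534 to 151401944, plus strand) was the beta subunit that was not called. It measured 535, 529 and 531 TPM in treated against 524, 565 and 534 TPM in untreated LoVo-labelled LIN28B, and 492, 475 and 477 TPM in treated against 448, 446 and 430.4 TPM in untreated DLD-1 LIN28B. The groups overlapped under the LoVo label, while in DLD-1 all treated libraries lay above the untreated ones by a small step (log2 -0.03 and 0.12; limma, adjusted p = 0.736 and 0.078). It was called higher in DLD-1 with median-of-ratios scaling (log2 0.28, limma, adjusted p = 0.00325) and with mitochondrial transcripts removed (log2 0.18, adjusted p = 0.0354).

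The activators divided. PSME3 (ENSG00000131467; chromosome 17, 42824385 to 42843758, plus strand), the nuclear activator PA28-gamma, had 35.9, 35.1 and 19.5 TPM in treated against 71, 55.1 and 70.8 TPM in untreated LoVo-labelled LIN28B, and 31.8, 42.8 and 48.9 TPM in treated against 79.8, 73.8 and 58.6 TPM in untreated DLD-1 LIN28B. The groups did not overlap, but the spread was wide, and the log2 changes of -1.14 ± 0.27 and -0.78 ± 0.27 (SE) had adjusted p of 0.00347 and 0.0397 by limma. PSME4 fell more evenly, to 22, 19.3 and 24.8 TPM in treated LoVo-labelled LIN28B, against 37.6, 40.5 and 38.5 TPM untreated, and to 28.2, 25.1 and 23.5 TPM in treated DLD-1 LIN28B, against 39.3, 38.4 and 40 TPM untreated (limma, adjusted p = 6.19e-06 and 0.000189). PSME1 and PSME2, the interferon-induced activator pair PA28-alpha and PA28-beta, were not called. PSME1 measured 211, 194 and 214 TPM in treated against 191, 202 and 193 TPM in untreated LoVo-labelled LIN28B and 218, 207 and 224 TPM in treated against 212, 205 and 193 TPM in untreated DLD-1 LIN28B, with overlapping groups. POMP, which guides the beta ring into the partly built core, was called under the LoVo label, at 119, 102 and 101 TPM in treated against 156, 176 and 157 TPM in untreated LoVo-labelled LIN28B (limma, adjusted p = 7.35e-05), and not in DLD-1, at 106, 111 and 111 TPM in treated against 128, 136 and 119 TPM in untreated DLD-1 LIN28B (adjusted p = 0.0664), although its groups did not overlap there either.

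**Figure D3:**
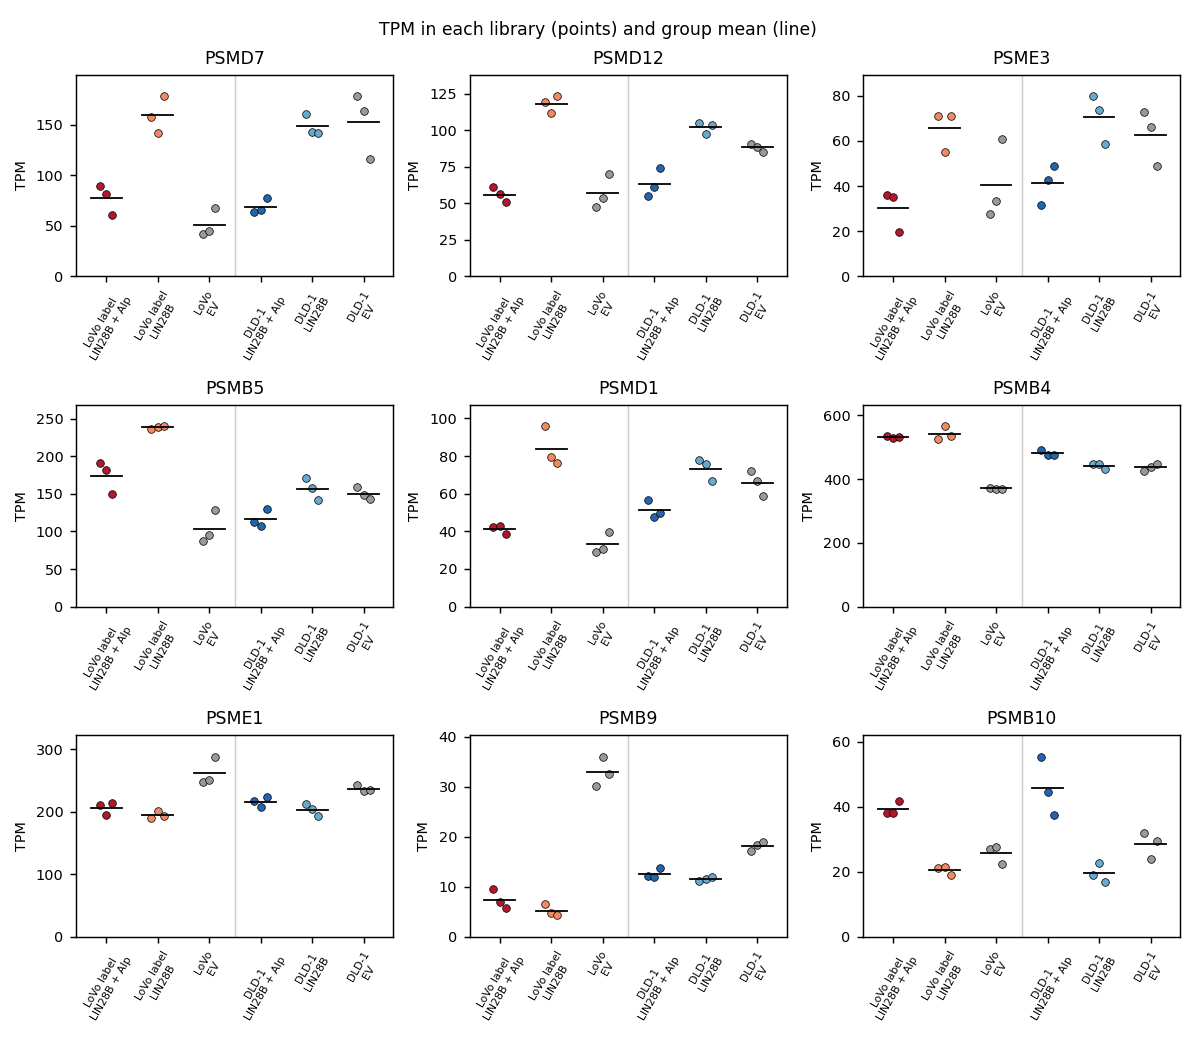
TPM of 9 genes in each library (points) with the group mean (line), in the order LIN28B with alpelisib, LIN28B and EV for the LoVo label and for DLD-1. PSMD7, PSMD12, PSME3, PSMB5 and PSMD1 were lower with alpelisib in both sets, PSMB4 and PSME1 stayed near their untreated level, and the inducible subunit PSMB10 was higher.

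Whether the alpelisib effect differed between the sets was tested as the difference of both changes. Limma called 0 of 36 genes higher and 0 lower, where 0.637% of all genes were called higher and 0.21% lower. At an unadjusted p under 0.05, 10 of 36 had a more negative change under the LoVo label and 0 a less negative one, where 4.93% and 7.52% of all genes did. PSMD13 had the smallest p of the 19S genes, with a difference of -0.31 ± 0.085 log2 (SE; limma, adjusted p = 0.105). PSMD1 differed by -0.49 ± 0.17 and PSMD7 by 0.05 ± 0.26. With errors of this size, these data do not show the changes to be alike or unlike in a single gene.

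The promoters of genes that moved together and of genes that did not are printed to show what they share. RefSeq promoters (GRCh38.p14) were matched for 31 of 36 genes, and 12 motifs were searched on both strands in the 250 bases before each start and in 35116 promoters of the same length. The 31 genes had 37 promoters, and a gene counted when any of its promoters matched. Shares of all are per single promoter, so the units differ and the gene shares can be higher for that reason. The antioxidant response element core TGACNNNGC lay before 8 of 31 proteasome genes (25.8%) and in 10.9% of all promoters: PSMA4, PSMB3, PSMC5, PSMD3, PSMD12, PSME1, PSME2 and PSME4. Of these 8, PSMC5, PSME1 and PSME2 were among the genes not called with alpelisib. The CCAAT box (CCAAT) lay in 15 (48.4%, against 32.0% of all), the ETS site CCGGAAG in 8 (25.8%, against 8.52%) and the GC box GGGCGG in 21 (67.7%, against 42.6%). The TATA box TATAAA lay in 4 (12.9%, against 10.7%), the AP-1 site TGACTCA in 2 (6.45%, against 4.20%), the E-box CACGTG in 2 (6.45%, against 6.34%), the nuclear respiratory factor palindrome in 1 (3.23%, against 1.03%) and the sterol response element TCACNCCAC in 1 (3.23%, against 0.883%). The cAMP response element TGACGTCA, the long YY1 site and the C/EBP-ATF site TTGCATCA lay in 0 of 31 (against 1.65%, 0.248% and 0.772%). An AP-1 match followed by GC also counts as an antioxidant response element core. A match is a run of letters and not a bound site. The 200 bases that end 51 bases before the start are shown for PSMD7 and PSMD12, which fell strongly, and for PSMB4 and PSME1, which were not called, chosen after their values were seen; capitals mark an antioxidant response element core or a CCAAT box on the printed strand.
PSMD7, chr16:74296564-74296763, plus strand: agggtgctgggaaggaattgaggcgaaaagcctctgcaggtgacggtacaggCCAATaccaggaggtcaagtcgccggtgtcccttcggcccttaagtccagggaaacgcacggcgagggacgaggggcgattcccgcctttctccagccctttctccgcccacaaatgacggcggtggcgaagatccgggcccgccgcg
PSMD12, chr17:67366628-67366827, minus strand: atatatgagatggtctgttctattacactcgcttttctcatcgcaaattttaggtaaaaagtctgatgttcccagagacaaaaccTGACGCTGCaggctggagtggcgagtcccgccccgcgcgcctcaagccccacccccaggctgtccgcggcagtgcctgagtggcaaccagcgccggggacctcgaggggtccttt
PSMB4, chr1:151399323-151399522, plus strand: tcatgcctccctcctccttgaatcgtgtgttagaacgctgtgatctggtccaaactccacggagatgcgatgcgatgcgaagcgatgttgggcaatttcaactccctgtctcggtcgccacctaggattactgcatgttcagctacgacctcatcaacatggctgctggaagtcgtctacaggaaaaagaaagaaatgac
PSME1, chr14:24135944-24136143, plus strand: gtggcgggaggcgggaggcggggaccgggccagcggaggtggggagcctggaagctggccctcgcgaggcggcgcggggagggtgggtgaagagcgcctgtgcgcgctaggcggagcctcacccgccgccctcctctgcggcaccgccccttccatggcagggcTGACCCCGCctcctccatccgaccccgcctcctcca
PSMD12 and PSME1 each hold 1 antioxidant response element core, PSMD7 holds 1 CCAAT box, and PSMB4 holds neither in this window.

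The next comparison asked what LIN28B changed without the drug. In DLD-1 the proteasome genes stayed close to EV. Limma called 0 of 36 higher and 0 lower, where 1.21% of all genes were called higher and 1.32% lower, and the median log2 change was 0.06 beside 0.02 over all genes. At an unadjusted p under 0.05, 3 genes were higher (PSME4, PSMB2 and PSMB3) and 1 was lower (PSME1), where 8.17% and 6.1% of all genes were. PSME4 measured 39.3, 38.4 and 40 TPM in DLD-1 LIN28B against 30.6, 32 and 32 TPM in DLD-1 EV, without overlap (log2 0.31; limma, adjusted p = 0.0897). PSME1 measured 212, 205 and 193 TPM in DLD-1 LIN28B against 242, 234 and 234 TPM in DLD-1 EV, also without overlap (log2 -0.22; limma, adjusted p = 0.117, and 0.0236 with median-of-ratios scaling, where it was the 1 gene called). With that scaling 1.40% of all genes were called higher and 2.07% lower. PSMD7 was at 160.5, 143 and 142 TPM in DLD-1 LIN28B and 178, 163 and 116 TPM in DLD-1 EV, and its EV replicate 3 was the lowest of the 6.

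In DLD-1 LIN28B cells with alpelisib the transcripts were also below EV. By limma 21 of 36 genes were called lower and 0 higher, where 20.2% of all genes were called lower and 9.71% higher, with a median log2 change of -0.31 beside -0.06 over all genes. With the filter at 5 TPM, 29.8% of all genes were called lower and 11.9% higher, and their median log2 change was -0.14. This comparison shares its treated libraries with the comparison against untreated DLD-1 LIN28B. PSMD7 had the largest change, at 69 ± 7.52 TPM with LIN28B and alpelisib against 153 ± 32.3 TPM with EV (SD, n = 3; log2 -1.12, limma, adjusted p = 0.000415). PSMC2 was at 63.5 ± 10 TPM in DLD-1 LIN28B with alpelisib against 105 ± 7.6 TPM in DLD-1 EV (log2 -0.73), PSMA6 at 267 ± 29.8 TPM in DLD-1 LIN28B with alpelisib against 429 ± 35.5 TPM in DLD-1 EV (log2 -0.68), PSMB1 at 375 ± 25.8 TPM in DLD-1 LIN28B with alpelisib against 477 ± 26 TPM in DLD-1 EV (log2 -0.35) and PSMB4 at 481 ± 9.34 TPM in DLD-1 LIN28B with alpelisib against 437 ± 10.4 TPM in DLD-1 EV (log2 0.14, not called). By class the count was 4 of 7 alpha subunits, 2 of 7 beta subunits, 4 of 6 ATPases, 9 of 11 other 19S subunits, 1 of 4 activators (PSME4) and POMP. With median-of-ratios scaling 12 were called lower and 1 higher (PSMB4), where 16.2% and 14.3% of all genes were. Without the alpelisib library of replicate 1 the count was 12 lower, where 14.4% of all genes were.

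Under the LoVo label the LIN28B comparison looked different, and it rests on the LoVo EV libraries described above. Limma called 34 of 36 genes higher in LoVo-labelled LIN28B than in LoVo EV and 2 lower, where 40.3% of all genes were called higher and 16.5% lower. The median log2 change was 0.81, beside 0.26 over all genes. With the filter at 5 TPM, 53.6% of all genes were called higher and 16.0% lower, and their median log2 change was 0.40. With median-of-ratios scaling, which shifted the median of all genes by -0.30, 25 were called higher and 2 lower, and the median change was 0.43. Of all genes so scaled, 25.6% were called higher and 28.1% lower. With 1 LoVo EV library left (without replicates 1 and 2), the median log2 change was 0.61, beside 0.21 over all genes. PSMD7 had 158, 142 and 178 TPM in LoVo-labelled LIN28B against 41.9, 44.5 and 67.4 TPM in LoVo EV (ratio of means 3.11; limma, adjusted p = 1.3e-06). PSME4 had 37.6, 40.5 and 38.5 TPM in LoVo-labelled LIN28B against 12.1, 12.4 and 12.3 TPM in LoVo EV (ratio 3.17; limma, adjusted p = 4.88e-10). LoVo EV replicate 3, the library with the lowest mitochondrial share of its group, had the highest PSMD7 value of that group. Its sum over the 36 genes was also the highest, at 5285 TPM against 4256 and 4452 TPM. Its median-of-ratios factor, taken over all genes found in every library, was 0.923 against 0.789 and 0.827. Higher values in that library were thus not particular to the proteasome genes. With mitochondrial transcripts removed from the TPM, 29 genes were called higher and 2 lower, where 31.6% and 21.8% of all genes were. The median log2 change was 0.61, beside 0.086 over all genes.

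The smallest p in this comparison was that of PSMD13, at 259, 255 and 241 TPM in LoVo-labelled LIN28B against 90.5, 97.2 and 97.9 TPM in LoVo EV (log2 1.39 ± 0.06 SE; limma, adjusted p = 2.16e-11). PSMB5 had 236, 239 and 239.7 TPM in LoVo-labelled LIN28B against 86.6, 95.2 and 129 TPM in LoVo EV (log2 1.22; limma, adjusted p = 5.99e-07). PSMD6 more than doubled in mean TPM (ratio 2.48), as did POMP (ratio 2.11). PSME1 and PSME2 were the 2 genes called lower. PSME1 measured 191, 202 and 193 TPM in LoVo-labelled LIN28B against 247, 251 and 288 TPM in LoVo EV, and PSME2 159.7, 177 and 141 TPM in LoVo-labelled LIN28B against 193, 195 and 187 TPM in LoVo EV, with no overlap in either (limma, adjusted p = 6.25e-05 and 0.0166). The call of PSME2 was lost without LoVo EV replicate 2 (limma, adjusted p = 0.0505), without LoVo-labelled LIN28B replicate 3 (0.102) and in a fit of only the 2 groups (0.0607). With 1 LoVo EV library left, the log2 change was 1.22 for PSMD7, 1.58 for PSME4, 1.35 for PSMD13, 0.88 for PSMB5, 1.08 for PSMD6, 0.95 for POMP and -0.56 for PSME1, all still called by limma, and -0.24 for PSME2, not called (adjusted p = 0.173). The direction of PSMA5, PSMC5, PSMD2 and PSMD4 turned with median-of-ratios scaling (log2 -0.019, -0.079, -0.047 and -0.053).

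The difference of the LIN28B effect between the labels was called higher in 27 of 36 genes and lower in 1 (PSME2), where 30.4% and 12.4% of all genes were. With the filter at 5 TPM, 42.6% of all genes were called higher and 12.4% lower. The call of PSME2 was narrow (log2 -0.33, limma, adjusted p = 0.048). It was lost with the replicate block (limma, adjusted p = 0.0571), with no filter (0.0758) and without any 1 of 10 of the 12 libraries, up to 0.135. The counts were 21 higher and 2 lower with median-of-ratios scaling, where 19.1% and 20.6% of all genes were. With mitochondrial transcripts removed they were 25 and 2, where 22.7% and 16.3% of all genes were. With 1 LoVo EV library left the median difference of the 36 was 0.55, beside 0.18 over all genes. Both EV groups were then set against each other. LoVo EV was below DLD-1 EV in 33 of 36 genes and above in 0, where 38.2% of all genes were called lower and 17.3% higher. With median-of-ratios scaling 21 were lower and 3 higher (PSMD2, PSME1 and PSME2), where 25.3% and 28.1% of all genes were. With mitochondrial transcripts removed 29 were lower and 1 higher, where 30.3% and 21.9% of all genes were. With 1 LoVo EV library left the median log2 change of the 36 was -0.42, beside -0.17 over all genes. With the filter at 5 TPM, 51.8% of all genes were called lower and 16.2% higher in LoVo EV. PSMD7 was at 51.3 ± 14 TPM in LoVo EV against 153 ± 32.3 TPM in DLD-1 EV (SD, n = 3, log2 -1.56, limma, adjusted p = 2.47e-06). Its log2 change was -1.14 with 1 LoVo EV library left. The LIN28B groups were much closer: limma called 4 of 36 higher in LoVo-labelled LIN28B than in DLD-1 LIN28B (PSMA7, PSMB4, PSMB5 and POMP) and 0 lower, where 7.96% of all genes were called higher and 6.02% lower. PSMB5 was at 236, 239 and 239.7 TPM in LoVo-labelled LIN28B against 171, 158 and 141 TPM in DLD-1 LIN28B (log2 0.61; limma, adjusted p = 0.00391). PSMB4 was at 524, 565 and 534 TPM in LoVo-labelled LIN28B against 448, 446 and 430.4 TPM in DLD-1 LIN28B (log2 0.29; limma, adjusted p = 0.000884). These comparisons share libraries with those above, and their values are given side by side for that reason.

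LoVo-labelled LIN28B with alpelisib was above LoVo EV in 15 genes and below it in 3 (PSMD2, PSME1 and PSME2) by limma. Of all genes, 32.2% were called higher and 14.7% lower. The median log2 change of the 36 was 0.194, close to the 0.185 over all genes. Scaling moved the balance, with 8 higher and 7 lower under median-of-ratios, and so did the LoVo EV libraries, with 9 higher and 5 lower when only replicate 3 was left and 23 higher and 3 lower without replicate 3. With mitochondrial transcripts removed 12 were called higher and 5 lower, where 23.6% and 20.1% of all genes were. With the filter at 5 TPM, 39.6% of all genes were called higher and 15.5% lower. PSMD13 was at 149.7 ± 0.871 TPM with LIN28B and alpelisib against 95.2 ± 4.1 TPM with EV (log2 0.65), PSMD6 at 121 ± 4.96 TPM in LoVo-labelled LIN28B with alpelisib against 67.3 ± 10.3 TPM in LoVo EV (log2 0.84) and PSMD12 at 56 ± 5.3 TPM in LoVo-labelled LIN28B with alpelisib against 57 ± 11.7 TPM in LoVo EV (SD, n = 3; log2 -0.01, not called). With 1 LoVo EV library left the log2 changes were 0.61 for PSMD13, 0.62 for PSMD6 and -0.32 for PSMD12.

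**Figure D4:**
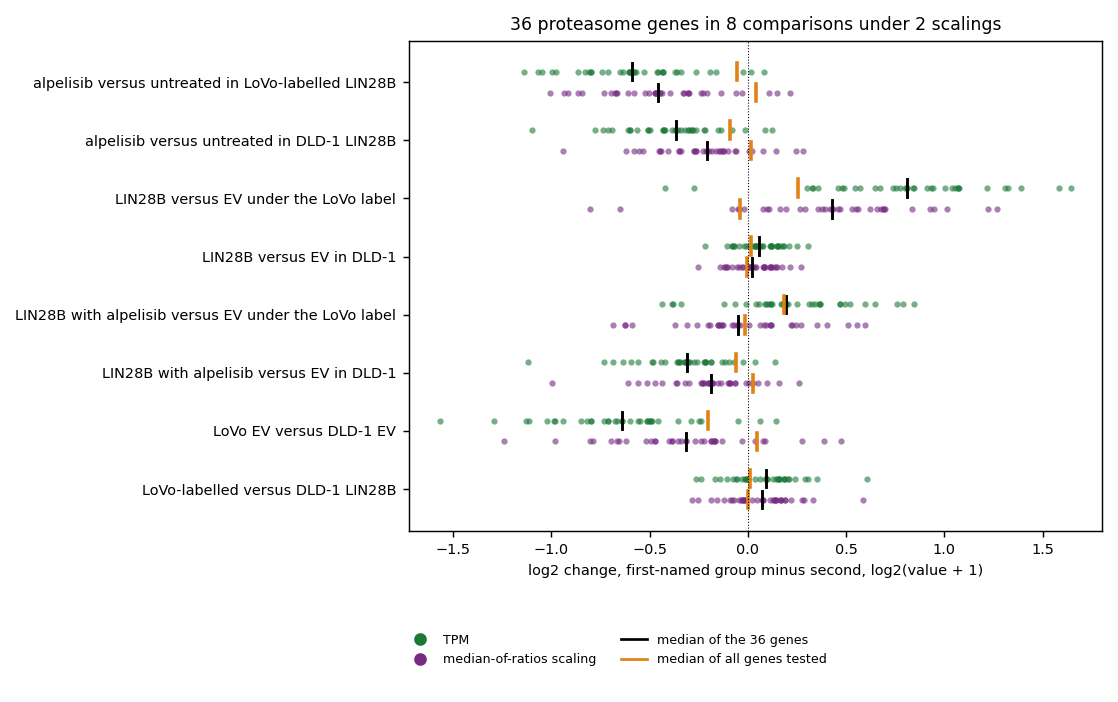
Log2 change (x axis, first-named group minus second) of each of the 36 proteasome genes (points) in 8 comparisons (rows), on TPM and with median-of-ratios scaling, with the median of the 36 genes and of all genes tested as vertical marks. The median of the 36 was negative for alpelisib and near 0 for LIN28B in DLD-1 under both scalings, and for LIN28B under the LoVo label it was 0.81 on TPM and 0.43 with scaling, where PSMA5, PSMC5, PSMD2 and PSMD4 turned slightly negative.

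Other genes of the pathway were read beside the 36. The inducible beta subunits PSMB8, PSMB9 and PSMB10 replace PSMB5, PSMB6 and PSMB7 in the immunoproteasome, which makes peptides for antigen presentation. With alpelisib 3 of 3 were called higher under the LoVo label and 2 of 3 in DLD-1, where 15.1% and 9.05% of all genes were, with medians of 0.59 and 0.45 log2 beside -0.06 and -0.09 over all genes. PSMB10 (chromosome 16, 67934502 to 67937087, minus strand) had 37.9, 38.2 and 41.6 TPM in treated against 21.2, 21.4 and 18.9 TPM in untreated LoVo-labelled LIN28B, and 55.4, 44.6 and 37.6 TPM in treated against 19.1, 22.7 and 16.7 TPM in untreated DLD-1 LIN28B. The groups were fully apart, with ratios of means of 1.91 and 2.35 (limma, adjusted p = 0.000137 and 3.11e-05). PSMB8 had 58.8, 48.3 and 47.3 TPM in treated against 35.1, 32.5 and 33.8 TPM in untreated LoVo-labelled LIN28B and 65.3, 60.7 and 62.9 TPM in treated against 47.2, 48.1 and 42.5 TPM in untreated DLD-1 LIN28B (limma, adjusted p = 8.54e-05 and 0.0014). PSMB9 was called under the LoVo label, where its groups overlapped (log2 0.43; limma, adjusted p = 0.0275, lost without LoVo-labelled LIN28B replicate 2 or 3 or alpelisib replicate 1, up to 0.153), and not in DLD-1 (log2 0.12; adjusted p = 0.586). Exons of PSMB8 and PSMB9 overlap on opposite strands, and the use of strand in counting was not given in the sources used here.

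With LIN28B against EV, PSMB8 and PSMB9 were lower. In DLD-1, PSMB9 was at 11.2, 11.5 and 12 TPM with LIN28B against 17.2, 18.3 and 19 TPM with EV, and PSMB8 at 47.2, 48.1 and 42.5 TPM in DLD-1 LIN28B against 64.3, 59.9 and 62 TPM in DLD-1 EV. Neither gene had overlapping groups (log2 -0.61 and -0.43; limma, adjusted p = 0.0379 and 0.0177), but leaving out any 1 of the 6 libraries lifted the adjusted p of PSMB9 above 0.05, up to 0.128, and leaving out DLD-1 EV replicate 1 or 3 or DLD-1 LIN28B replicate 1 or 3 did so for PSMB8. PSMB10 was at 19.1, 22.7 and 16.7 TPM in DLD-1 LIN28B against 32, 24 and 29.6 TPM in DLD-1 EV and missed the threshold (log2 -0.53; limma, adjusted p = 0.0637). Under the LoVo label PSMB9 was at 6.52, 4.68 and 4.41 TPM with LIN28B against 30.3, 36 and 32.6 TPM with EV (log2 -2.47; limma, adjusted p = 9.06e-10), and PSMB8 at 35.1, 32.5 and 33.8 TPM with LIN28B against 56.6, 65.6 and 63.1 TPM with EV (log2 -0.85; adjusted p = 5.25e-07). With 1 LoVo EV library left both were still called by limma (log2 -2.45 and -0.88). Of the other lists, LIN28B against EV in DLD-1 moved 1 gene, the chaperone PSMG1 (log2 0.41; limma, adjusted p = 0.0277), where 1.21% of all genes were called higher and 1.32% lower. Under the LoVo label it had 6 of 8 chaperones higher and 1 lower, 10 of 13 regulators higher and 0 lower and 7 of 9 transcription and processing genes higher and 1 lower, where 40.3% of all genes were higher and 16.5% lower. With mitochondrial transcripts removed these counts were 6 and 1 for the chaperones, 7 and 0 for the regulators and 5 and 2 for the transcription and processing genes. Of all genes, 31.6% were then called higher and 21.8% lower.

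The transcription factor NFE2L1 (ENSG00000082641; chromosome 17, 48048329 to 48061487, plus strand) was lower with alpelisib. It measured 129, 168 and 95.3 TPM in treated against 203, 162 and 189.9 TPM in untreated LoVo-labelled LIN28B, where 1 treated library overlapped, and 90.9, 75 and 96.4 TPM in treated against 159, 152 and 134 TPM in untreated DLD-1 LIN28B, where none did. The log2 change was -0.53 and -0.76 (limma, adjusted p = 0.0231 and 0.00402), and under the LoVo label the call was lost without LoVo-labelled LIN28B replicate 1 or 3 or without alpelisib replicate 3, up to an adjusted p of 0.142. Of the 9 genes of the list of NFE2L1, its relatives and its processing, 6 were called lower and 0 higher under the LoVo label and 8 and 0 in DLD-1, where 24.6% of all genes were lower and 15.1% higher under the LoVo label and 21.9% and 9.05% in DLD-1. NGLY1, the glycanase that edits NFE2L1 into its active form, had 35.6, 34.6 and 27.5 TPM in treated against 76.4, 67.8 and 90.6 TPM in untreated LoVo-labelled LIN28B, and 24.1, 25 and 26.5 TPM in treated against 43.6, 39.4 and 41.5 TPM in untreated DLD-1 LIN28B (limma, adjusted p = 5.32e-06 and 0.00139). NFE2L3, a related factor, was at 38.4 ± 5.49 TPM in treated against 69.3 ± 4.31 TPM in untreated LoVo-labelled LIN28B and 41.2 ± 4.15 TPM in treated against 60.9 ± 5.83 TPM in untreated DLD-1 LIN28B (SD, n = 3).

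The list of 13 other regulators and 19S-bound factors had 9 genes called lower and 0 higher under the LoVo label and 8 lower and 1 higher (SEM1, a small 19S subunit) in DLD-1, against the shares of all genes just given, with medians of -0.49 and -0.44 log2 beside -0.06 and -0.09 over all genes. UBQLN1, a shuttle that carries ubiquitinated proteins to the proteasome, had 48.3, 44.6 and 37.1 TPM in treated against 85.6, 82.2 and 88.1 TPM in untreated LoVo-labelled LIN28B, and 39.4, 44 and 44.5 TPM in treated against 91.9, 80.1 and 78.5 TPM in untreated DLD-1 LIN28B (ratio of means 0.508 and 0.51; limma, adjusted p = 5.88e-05 and 0.000163). The shuttle RAD23B was at 64.1 ± 4.85 TPM in treated against 128 ± 4.98 TPM in untreated LoVo-labelled LIN28B (SD, n = 3; limma, adjusted p = 5.67e-06). USP14, a deubiquitinase that sits on PSMD2, was at 64.6 ± 5.58 TPM in treated against 128 ± 3.59 TPM in untreated LoVo-labelled LIN28B and 46.5 ± 1.23 TPM in treated against 73.6 ± 5.26 TPM in untreated DLD-1 LIN28B.

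Assembly chaperones were mixed. Of 8, 5 were called lower and 2 higher under the LoVo label and 3 lower and 0 higher in DLD-1, where 24.6% of all genes were lower and 15.1% higher under the LoVo label and 21.9% and 9.05% in DLD-1. PAAF1, which binds the ATPases during assembly, was at 17.3 ± 0.374 TPM in treated against 26.5 ± 1.77 TPM in untreated LoVo-labelled LIN28B and 14.5 ± 1.49 TPM in treated against 22.1 ± 1.51 TPM in untreated DLD-1 LIN28B (SD, n = 3; limma, adjusted p = 0.00212 and 0.00324). PSMD10 changed by -0.55 log2 under the LoVo label and -0.37 in DLD-1, and PSMD5 by -0.37 and -0.56, both chaperones of the 19S base. The 2 called higher under the LoVo label were PSMG2 (log2 0.29) and PSMG4 (log2 0.55), which help build the alpha ring.

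The 36 genes lie on 14 chromosomes, with 7 each on chromosomes 14 and 17. Exons of 15 of them overlap those of other annotated genes, and in 13 the partner lies on the opposite strand, for example BECN1 at PSME3, EMC9 at PSME1, SIRT3 at PSMD13 and an antisense transcript at PSMD7. Without knowing the use of strand, reads of such a pair cannot be told apart.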

How the data were processed

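RNA of 18 libraries was sequenced, and the authors deposited 1 table that holds, per the file headers, TPM per gene. Tools named in the submitters' processing notes, with no role or order, are HTSeq, DESeq2, Picard and STAR 2.7.10, and the build is hg38; annotation, use of strand, treatment of multi-mapping reads and depth are not given in the sources used here, and TPM keeps no depth. Symbols were matched to 61757 of 61806 identifiers. Genes at 1 TPM or more in at least 3 libraries (18537) were tested on log2(TPM + 1), which understates changes of low genes, with limma 3.58.1 in R 4.3.3 (1 model of 6 groups, moderated with a trend, 12 residual degrees of freedom). P-values were adjusted by Benjamini-Hochberg over all tested genes and called under 0.05. The fit was also run on simulated data with independent normal noise. Those data held no shift of a whole group, so they do not bear on scaling or mitochondrial share. Members and lists were chosen with earlier results of these data known. Values per library went to the genes of smallest adjusted p per class (at most 3) and to LIN28B, NFE2L1 and PSMB8 to PSMB10; the other genes given per library were chosen after their values were seen. Locations are from GENCODE 29 (GRCh38) and promoters from RefSeq (GRCh38.p14). Alternatives were median-of-ratios scaling, removal of 15 mitochondrial genome transcripts, a pseudocount of 0.1, no filter, a filter at 5 TPM, only the groups compared, a replicate block, each library left out and, added after seeing the data, no LoVo EV replicates 1 and 2. Results of some genes outside the 36 are not reported here.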

Additional observations from a re-analysis of the deposited data

Results flagged for a closer look

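The effect of LIN28B against EV differed between the LoVo label and DLD-1 by limma in 28 of the 36 proteasome genes and in 3 other genes given in the text (PSMB8, PSMB9 and NFE2L1), tested as the LoVo-label change minus the DLD-1 change on the log2 scale. Of all genes tested, 30.4% were called higher and 12.4% lower, and with the filter at 5 TPM 42.6% and 12.4%. Among the core genes it was 0.70 for PSMA1, 0.70 for PSMA3, 0.80 for PSMA4, 1.09 for PSMA6, 0.77 for PSMA7, 0.95 for PSMB1, 0.59 for PSMB2, 0.50 for PSMB3, 0.53 for PSMB4, 1.15 for PSMB5, 0.50 for PSMB6 and 0.80 for PSMB7. Among the ATPase genes it was 0.84 for PSMC1, 1.07 for PSMC2, 0.65 for PSMC4 and 0.88 for PSMC6. Among the other 19S genes it was 1.17 for PSMD1, 0.91 for PSMD11, 0.85 for PSMD12, 1.27 for PSMD13, 0.85 for PSMD14, 0.81 for PSMD3, 0.28 for PSMD4, 1.27 for PSMD6 and 1.66 for PSMD7. Among the activator and assembly genes it was 1.15 for POMP, -0.33 for PSME2 and 1.28 for PSME4. The value of PSME2 was past the threshold without 2 of the 12 single libraries and not without the other 10. Outside the 36 genes it was -1.85 for PSMB9, -0.42 for PSMB8 and 1.30 for NFE2L1. These values rest on LoVo EV, which stood apart in its mitochondrial share, and on LoVo-labelled LIN28B libraries that resembled DLD-1 LIN28B. With mitochondrial transcripts removed the difference was called higher in 25 and lower in 2 of the 36 genes, where 22.7% and 16.3% of all genes were. The median was 0.58, beside 0.055 over all genes. The part of the resemblance to DLD-1 was not tested.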

How the results depend on the processing

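Counts of proteasome genes called kept within 1.5 times of the reported ones under a pseudocount of 0.1, no filter, the filter at 5 TPM, only the groups compared and removal of mitochondrial transcripts. With median-of-ratios scaling limma called 1 gene for LIN28B against EV in DLD-1, 17 for alpelisib in DLD-1 LIN28B and 13 for LIN28B with alpelisib against EV in DLD-1. Of all genes, 1.40% were called higher and 2.07% lower in the first, 14.5% and 15.2% in the second and 14.3% and 16.2% in the third. The same scaling reversed 10 values on the log2 scale: LIN28B against EV under the LoVo label became -0.019 for PSMA5, -0.079 for PSMC5, -0.047 for PSMD2 and -0.053 for PSMD4, the difference of the LIN28B effect became -0.060 for PSMD4, and LoVo EV against DLD-1 EV became 0.037 for PSMA2, 0.089 for PSMB4, 0.32 for PSMB8, 0.079 for PSMC5 and 0.28 for PSMD2. Leaving out 1 library gave 16 to 29 called genes for alpelisib in DLD-1 LIN28B, 12 to 19 for LIN28B with alpelisib against EV in DLD-1 and 2 to 4 for LoVo-labelled against DLD-1 LIN28B (2 without DLD-1 LIN28B replicate 3). Of all genes, 15.4% to 20.5% were called lower in the first and 14.4% to 19.2% in the second. In the third, 5.71% to 6.30% were called higher and 3.62% to 4.91% lower. The cause was not tested.

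The labels do not say what a replicate number marks, so the numbers were not taken as pairs. Same-numbered libraries had r between -0.302 and 0.119. These were deviations from means of only 3 libraries, so pairing was not excluded. With the replicate block, the counts were 25 for alpelisib in DLD-1, 29 for alpelisib under the LoVo label, 17 for LIN28B with alpelisib against EV in DLD-1, and 27 higher and 0 lower for the difference of the LIN28B effect, where PSME2 was no longer called.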
